A study of Mus musculus with 30 samples.

Results

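Livers of male mice labelled as lacking the growth hormone receptor were compared with livers of male mice labelled wild type (WT). Of the 30 bead arrays in the study, 6 enter this comparison: the 3 liver arrays labelled KO and the 3 liver arrays labelled WT, taken by their labels alone. The other 24 arrays are of liver from 3 further receptor genotypes and of subcutaneous fat from all 5 genotypes. KO stands for the receptor removed altogether, 391 and 569 for receptors cut short at those amino acids, and Box1 for a receptor mutated in that segment. Every mouse was 4 months old and had been starved overnight, so the fasted state is shared by KO and WT. The labels call the mutants transgenic, and do not give the making of the KO allele, the strain or any pooling of animals. No label ties an array to 1 animal, so p-values reflect only the spread among arrays of a group, part of which may be technical.

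Growth hormone binds a receptor on hepatocytes that carries the kinase JAK2 on its Box1 segment. The kinase activates the transcription factor STAT5, which switches on Igf1, the main endocrine growth factor from liver, and genes for feedback inhibitors of the same pathway. In mice the pituitary releases the hormone in pulses in males and more evenly in females, and this pattern sets much of the difference between male and female liver in cytochromes, sulfotransferases and secreted proteins.

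Each value is a ratio of a probe to the median of that probe over the 15 liver arrays, so 1 is the middle array and levels of different probes cannot be compared. The ratio holds no absolute level, and for that reason the tissue label could not be checked by the level of liver markers. Of 11 hepatocyte markers limma called none between KO and WT (3 at an unadjusted p under 0.05), and their median log2 difference was 0.08. Over all probes 12.7% had an unadjusted p under 0.05. Arrays labelled KO shared a slide with those labelled 391, arrays labelled WT shared another with those labelled 569, and the Box1 arrays lay on a slide of their own. Slide and genotype therefore cannot be told apart between KO and WT, whereas KO against 391 is a comparison within a slide. Differences are log2 differences from limma ± SE, KO minus WT, and a probe or gene is called where its p-value adjusted over all 46643 probes is under 0.05. In whole liver, fewer cells of a type and less RNA per cell cannot be told apart.

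Ghr, the gene that was targeted, was not lower in the arrays labelled KO. Its more variable probe read 1.51, 1.09 and 1.26 in the KO arrays, against 1.09, 0.92 and 1.27 in the WT arrays, and the groups overlapped. The difference was 0.23 ± 0.23 (adjusted p = 0.776). The other Ghr probe read 1.4, 0.81 and 1 in KO liver and 0.8, 0.61 and 1.14 in WT liver (difference 0.34, adjusted p = 0.764). The position of these probes relative to the removed part is unknown here. They may therefore check nothing, and KO below means the arrays labelled KO.

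Between KO and WT liver 899 of 46643 probes were called (1.93%), 671 up (1.44%) and 228 down (0.489%). The falls were fewer but larger: the median called rise was 0.71, or 1.64-fold, and the median called fall was -0.89, or 1.85-fold. A change of at least 16-fold was reached by 6 probes that rose and 7 that fell. KO and WT arrays did not overlap for 898 of the 899 called probes, against 16.7% of all probes. A call itself favours arrays that do not overlap, so this count is no separate support for the calls. Counted by gene, with the most variable probe standing for each of 19406 genes, 641 were called (3.3%), 472 up (2.43%) and 169 down (0.871%). The number of called probes was 573, 413 and 514 without KO array 1, 2 or 3, and 873, 406 and 500 without WT array 1, 2 or 3. It was 1418, with 1109 up, when 391 arrays 2 and 3 were left out of the fit, and quantile normalization gave 376 probes down. Over all genes the median log2 difference was 0.03, and the middle 90% of genes lay between -0.28 and 0.49.

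**Figure D1:**
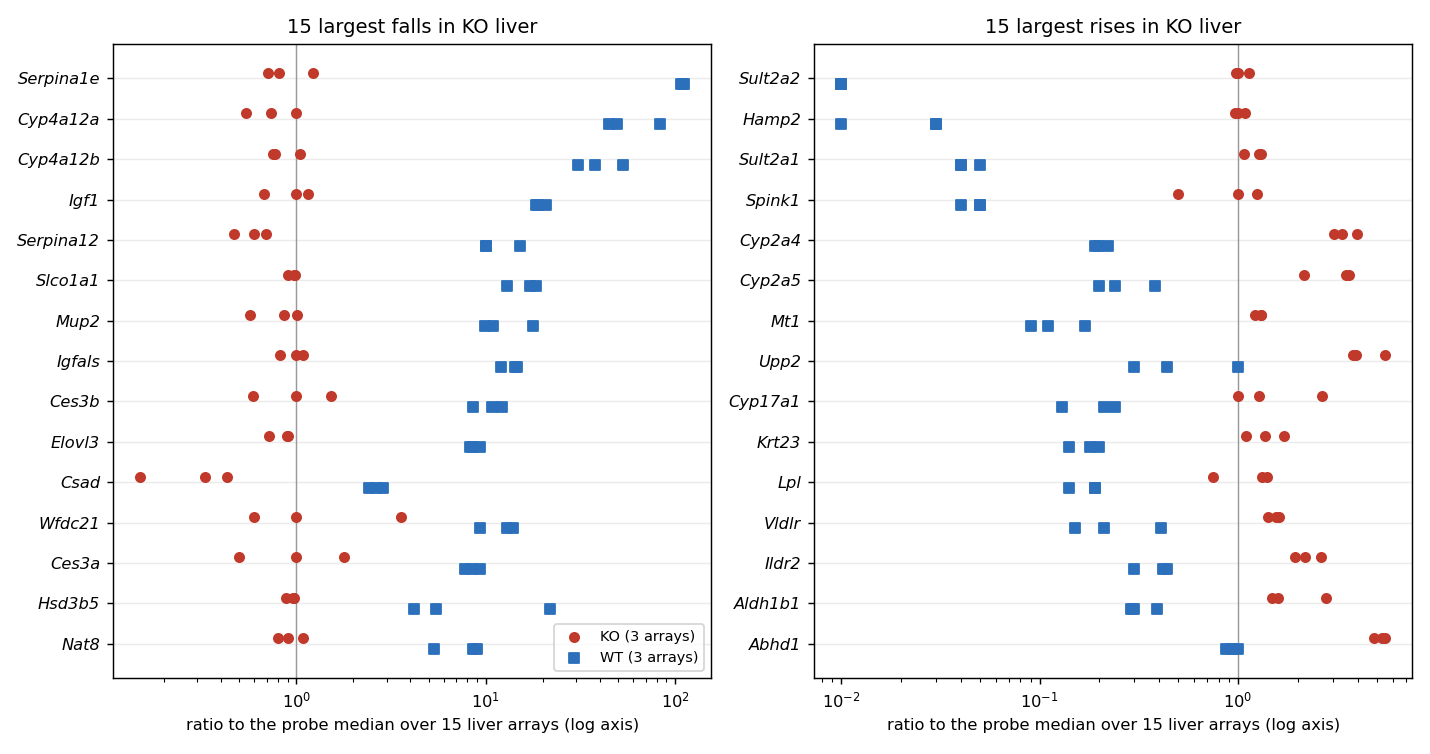
Ratio to the probe median over the 15 liver arrays (log axis) for the 15 genes with the largest called falls (left) and the 15 with the largest called rises (right), with 1 point per array, KO red and WT blue. The KO and WT points of every gene shown are separated, as the rule for naming them required. The Serpina1e points lie at 0.71 to 1.23 in KO and at 107.1 to 111.7 in WT.

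The growth hormone and IGF axis lost its main endocrine products in KO liver. Of 24 axis genes measured, 4 fell (Igf1, Igfals, Socs2 and Egfr), 1 rose (Stat3) and 19 were not called. The shares over all genes were 0.871% down and 2.43% up. The list median was 0.26 against 0.03 over all genes. Igf1, on chromosome 10, read 1, 1.15 and 0.68 in the KO arrays, against 20.72, 18.39 and 18.92 in the WT arrays. All KO values thus lay far below all WT values, and Igf1 fell by 4.39 ± 0.18 on the log2 scale (21.0-fold, adjusted p = 1.17e-09); the second Igf1 probe fell by 3.66. Igfals encodes the acid-labile subunit that keeps IGF1 in the circulation. It read 1, 1.08 and 0.82 in KO liver and 14.71, 14.27 and 12.01 in WT liver, and fell by 3.83 ± 0.22 (14.2-fold, adjusted p = 1.18e-07).

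The feedback inhibitors of the receptor were low in every KO array and uneven among the WT arrays. Socs2, a suppressor of growth hormone signalling, read 0.7, 1 and 0.82 in KO liver and 5.85, 2.7 and 10.71 in WT liver. The groups did not overlap, and Socs2 fell by 2.73 ± 0.43 (adjusted p = 0.00321) on this probe, while its other probes gave 0.13 and 0.05 and were not called. Cish, the inhibitor CIS, read 1.07, 1 and 0.92 in KO liver and 3.66, 1.53 and 6.6 in WT liver, without overlap. Its difference of -1.74 ± 0.43 missed the threshold (adjusted p = 0.0514). Egfr, the epidermal growth factor receptor, read 0.71, 1.06 and 0.58 in KO liver, against 3.89, 1.37 and 11.54 in WT liver. Egfr fell by 2.38 ± 0.51 (adjusted p = 0.0254), a call lost without KO array 1, 2 or 3 or WT array 1 or 3; another of its probes read 0.99, 1 and 0.77 in KO and 8.13, 5.03 and 9.13 in WT (-2.98, adjusted p = 1.92e-07). WT array 3 was the highest and WT array 2 the lowest for Socs2, Cish and Egfr, whereas Igf1 and Igfals were nearly level across the WT arrays.

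**Figure D2:**
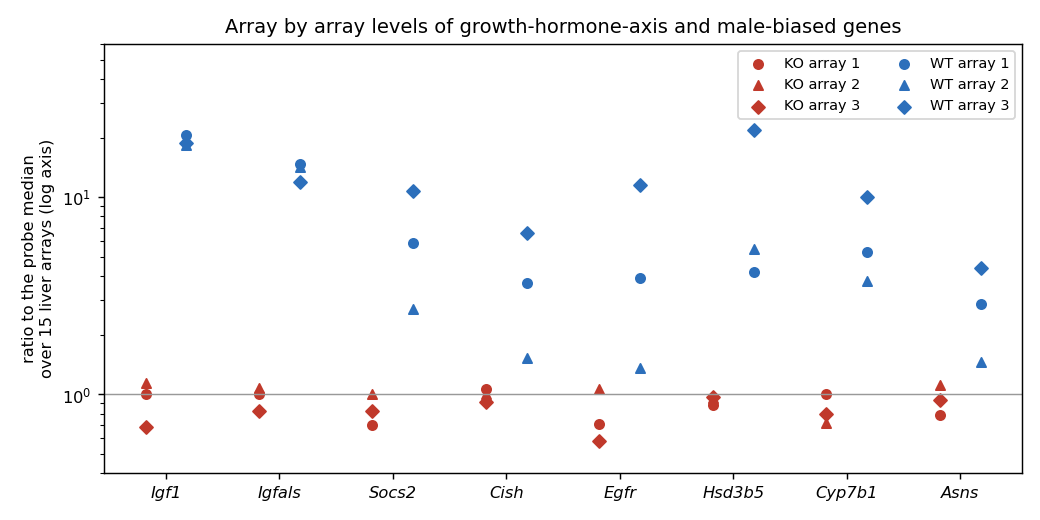
Ratio to the probe median over the 15 liver arrays (log axis) for 8 genes, with 1 point per array, KO in red to the left of WT in blue and the array number given by the marker shape. Igf1 and Igfals are nearly level within WT, while Socs2, Cish, Egfr and Asns are highest in WT array 3 and lowest in WT array 2.

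Of the IGF binding proteins and the signalling chain, Stat3 alone was called. Igfbp1, a binding protein induced by fasting, read 0.64, 1.56 and 0.66 in KO liver and 0.22, 0.16 and 0.11 in WT liver. Although the groups did not overlap, the difference of 2.47 ± 0.81 was not called (adjusted p = 0.166). Igfbp2 gave 0.97 (adjusted p = 0.0534) and Igfbp3, the main carrier of circulating IGF1, gave 0.46 (adjusted p = 0.318). Stat3 rose by 0.71 ± 0.14 (adjusted p = 0.0135), with its call lost without KO array 2 or 3 or WT array 2 or 3. Jak2, Stat5a and Stat5b gave 0.36, 0.50 and -0.09 and were not called (adjusted p = 0.189, 0.16 and 0.863).

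Among 16 transcription factors linked to growth hormone in liver, 2 rose, 1 fell and 13 were not called, with a median of 0.08. The shares over all genes were 2.43% up and 0.871% down. Bcl6, a repressor that growth hormone lowers in mouse liver, read 1.14, 1.25 and 0.79 in KO liver, against 0.27, 0.42 and 0.22 in WT liver. The KO arrays were all higher, a rise of 1.83 ± 0.36 (3.56-fold, adjusted p = 0.0149); the call was lost without KO array 1 or 2 or WT array 3. Tox, an HMG-box factor, rose by 1.38 ± 0.28 (lost without KO array 2 or 3 or WT array 2), and Foxa1, a pioneer factor of liver chromatin, fell by 0.76 ± 0.14 (lost without KO array 1). The remaining factors, Hnf4a, Onecut1, Cux2 and Trim24 among them, lay between -0.45 and 0.58.

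Promoter windows of 3 of these genes are shown because they hold the STAT5 letters TTCNNNGAA, which read the same on both strands. The windows run from 250 bases before to 50 bases after a start site, come from RefSeq on build GRCm38.p6, and are written 5′ to 3′ on the strand of the gene, with the matches in capitals. Igfals lies at chr17:24877594-24877893 on the plus strand, Bcl6 at chr16:23988803-23989102 on the minus strand, and Cish at chr9:107296409-107296708 on the plus strand.
Igfals: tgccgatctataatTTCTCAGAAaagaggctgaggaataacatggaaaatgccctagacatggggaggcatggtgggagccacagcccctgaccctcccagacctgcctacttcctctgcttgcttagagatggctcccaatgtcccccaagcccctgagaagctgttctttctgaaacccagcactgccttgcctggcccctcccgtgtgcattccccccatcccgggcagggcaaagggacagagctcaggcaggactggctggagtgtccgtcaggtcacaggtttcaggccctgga
Bcl6: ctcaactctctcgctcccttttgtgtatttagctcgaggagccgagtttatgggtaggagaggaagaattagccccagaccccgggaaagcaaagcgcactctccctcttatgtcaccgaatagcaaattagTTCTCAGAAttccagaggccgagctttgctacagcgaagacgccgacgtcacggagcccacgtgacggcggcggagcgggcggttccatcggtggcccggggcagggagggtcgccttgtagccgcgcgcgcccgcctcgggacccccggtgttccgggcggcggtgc
Cish: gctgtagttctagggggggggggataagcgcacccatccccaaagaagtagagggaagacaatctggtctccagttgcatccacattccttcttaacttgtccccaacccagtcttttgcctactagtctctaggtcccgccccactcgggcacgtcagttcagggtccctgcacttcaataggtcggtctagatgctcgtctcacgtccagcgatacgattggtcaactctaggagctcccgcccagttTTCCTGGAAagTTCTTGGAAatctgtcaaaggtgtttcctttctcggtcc
The match lies 236 bases before the start in Igfals and 118 bases before it in Bcl6, and Cish has 2 matches, the first at the start base itself. Of all 32851 windows in the table, 8.3% hold the letters. Of the 104 genes named by rule, 76 had a window; those that rose had a match in 6 of 40 and those that fell in 2 of 29, against 9.55% of all 27025 genes with a window. A match describes letters in a window, not binding.

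Many genes that are higher in male than in female liver fell. Of 25 male-biased genes measured, 15 fell, 2 rose and 8 were not called, with a median of -2.54. Over all genes 0.871% were called down and 2.43% up. Serpina1e, a paralogue of alpha-1-antitrypsin, read 0.81, 1.23 and 0.71 in the KO arrays and 107.1, 109.8 and 111.7 in the WT arrays. No other called gene fell further (-6.94 ± 0.16, 123-fold, adjusted p = 8.67e-13), although the second Serpina1e probe gave -0.06 (adjusted p = 0.831). Cyp4a12a, a fatty acid hydroxylase, read 1, 0.54 and 0.74 in KO liver and 49.2, 44.87 and 83.26 in WT liver, and fell by 6.27 ± 0.32 (77.2-fold). Its neighbour Cyp4a12b read 0.77, 0.75 and 1.05 in KO liver and 30.66, 37.54 and 53.17 in WT liver, and fell by 5.54 ± 0.25 (46.6-fold). In each of these genes the KO arrays sat near the middle of the 15 arrays and the WT arrays far above it.

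Slco1a1, an organic anion transporter, read 0.99, 0.97 and 0.9 in KO liver, against 17.1, 12.93 and 18.44 in WT liver. It fell by 4.07 ± 0.16 (16.8-fold, adjusted p = 1.16e-09), while its second probe was not called (0.00, adjusted p = 0.999). Mup2, a major urinary protein that carries pheromones, read 1.01, 0.57 and 0.86 in KO liver and 10.96, 9.89 and 17.75 in WT liver (-3.98 ± 0.33, adjusted p = 6.74e-06). The lipid and steroid enzymes of the list fell with them. Elovl3, a fatty acid elongase, read 0.91, 0.72 and 0.89 in KO liver and 9.38, 8.61 and 8.22 in WT liver (-3.38 ± 0.18). Hsd3b5, a steroid reductase, read 0.88, 0.96 and 0.97 in KO liver and 4.18, 5.49 and 21.87 in WT liver, and it fell by 3.09 ± 0.72 (adjusted p = 0.0415); the call was lost in 5 of the 6 fits that left out an array, all but the one without WT array 1. Nat8, an acetyltransferase of cysteine conjugates, fell by 3.00 ± 0.19.

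The members that went against the list were Selenbp2, a selenium-binding protein that rose by 0.93, and Dhrs7, a short-chain dehydrogenase that rose by 1.10. Of the uncalled members, Cyp2f2 gave -0.62 (adjusted p = 0.066) and Moxd1, Keg1 and Mup5 lay between -0.21 and 0.03. These 6 were picked with their values in view. The members of the Mup, Cyp4a12, Serpina1, Cyp2a and Sult2a families are near copies of each other, and which copy a probe measured is uncertain.

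Genes that are higher in female liver rose in part. Of 36 measured, 14 rose, none fell and 22 were not called, and the median was 0.26, where 2.43% of all genes were called up. Sult2a2 and Sult2a1 add sulphate to steroids and bile acids. Sult2a2 read 0.98, 1 and 1.13 in the KO arrays and 0.01, the lowest ratio in the file, in all 3 WT arrays. With the WT values set to the top of their rounding, Sult2a2 was at least 69.0-fold higher in KO liver (adjusted p = 1.7e-15). Sult2a1 read 1.28, 1.31 and 1.07 in KO liver and 0.04, 0.05 and 0.04 in WT liver, a rise of 4.82 ± 0.13 (28.2-fold). Hamp2, a paralogue of the iron hormone hepcidin, read 1.08, 1 and 0.96 in KO liver and 0.03, 0.03 and 0.01 in WT liver. With only the value of 0.01 set to the top of its rounding, Hamp2 was 42.5-fold higher in KO liver. Hamp itself, the iron-regulating hepcidin, gave -0.17 (adjusted p = 0.712).

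Among the female-biased cytochromes, the Cyp2a genes and Cyp17a1 rose. Cyp2a4, a steroid hydroxylase, read 3.98, 3.33 and 3.04 in KO liver, against 0.22, 0.19 and 0.2 in WT liver (4.08 ± 0.27, 16.9-fold, adjusted p = 3.85e-07). Cyp2a5, which oxidizes coumarin and nicotine, read 3.5, 3.63 and 2.15 in KO liver and 0.38, 0.2 and 0.24 in WT liver (3.52 ± 0.35), and its 3 other probes were called in the same direction. Cyp17a1, a steroid hydroxylase and lyase, read 1.28, 2.66 and 1 in KO liver and 0.24, 0.13 and 0.21 in WT liver (3.01 ± 0.49, adjusted p = 0.00417). By contrast Cyp3a41a, Cyp3a44, Cyp3a16 and Cyp2c40 lay between 0.02 and 0.15 and none was called. Cyp2b9, Cyp2b13 and Cyp2b10 gave 1.23, 2.42 and -1.52, with adjusted p-values of 0.688, 0.416 and 0.683. These 7 were chosen after their values were seen, as were Hao2, a hydroxy acid oxidase that rose by 2.28, and Sult3a1 and Sult1e1, sulfotransferases at 0.11 and 0.24 that were not called.

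**Figure D3:**
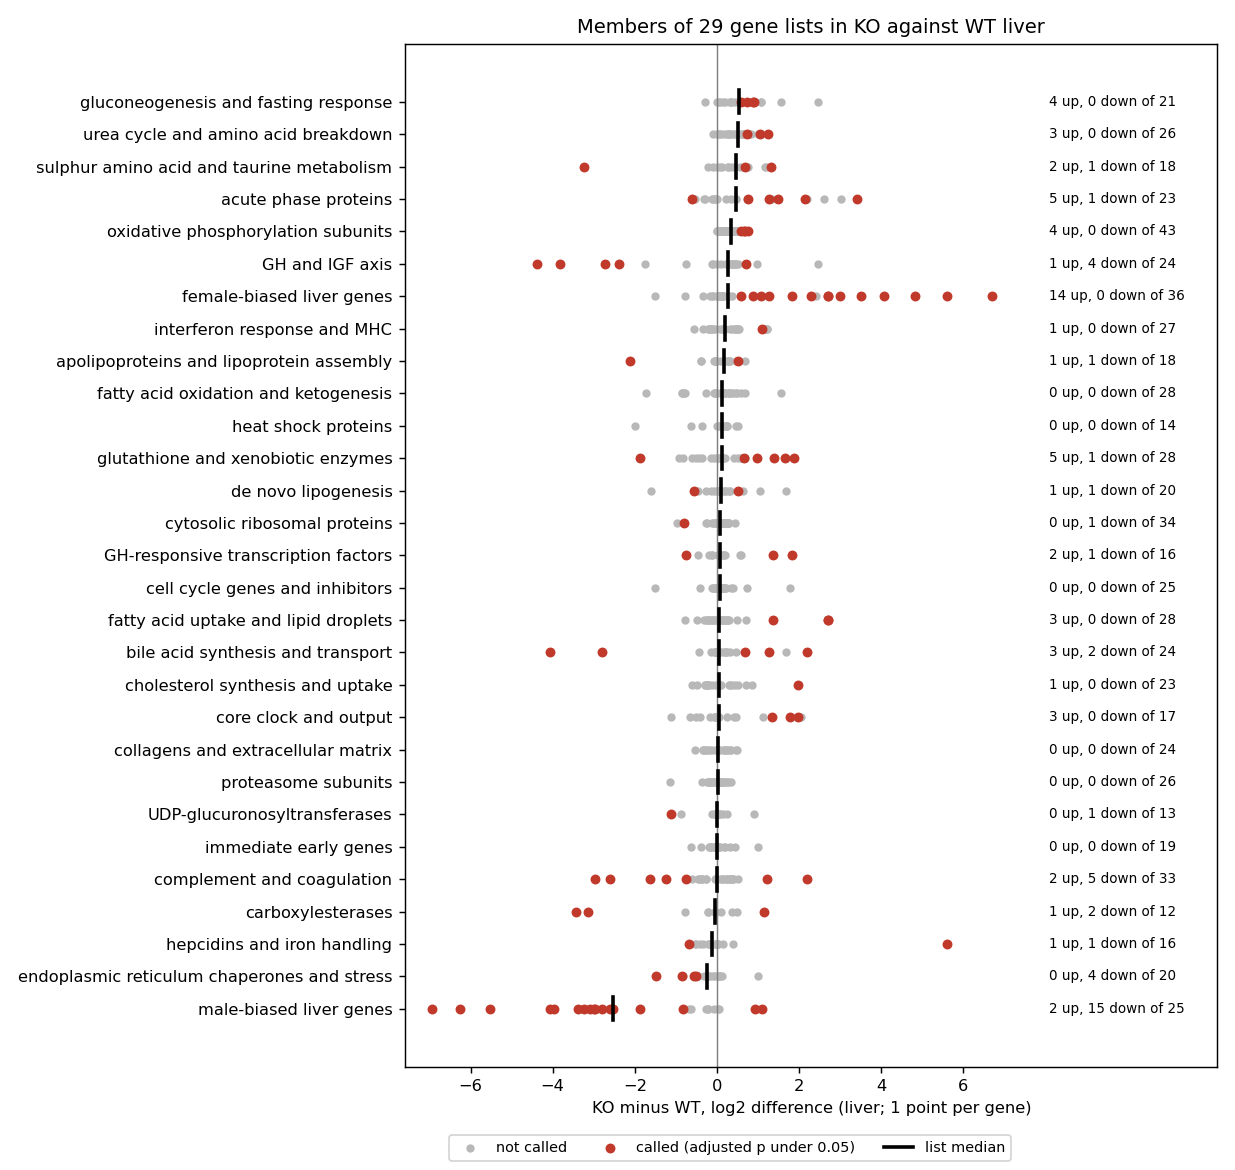
Log2 difference of KO minus WT liver for the members of 29 gene lists, with 1 point per gene, red where called and grey where not, a black bar at the list median and the counts at the right. Male-biased genes lie furthest to the left, with 15 of 25 down, and 14 of 36 female-biased genes are up.

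Over the 29 pathway lists and 11 cell type marker lists together, 789 genes were measured and 97 were called (12.3%), 60 up and 37 down. The share is above the 3.3% of all genes, but the lists were chosen with earlier results of these data known.

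A few genes of lipid uptake rose, and no gene of fatty acid oxidation was called. Of 28 uptake and lipid droplet genes, 3 rose, none fell and 25 were not called, where 2.43% of all genes were called up. The median was 0.06. Lpl, the lipase that releases fatty acids from lipoproteins, read 0.75, 1.4 and 1.32 in KO liver and 0.19, 0.19 and 0.14 in WT liver. The KO arrays were all higher (2.70 ± 0.28, 6.5-fold, adjusted p = 8.18e-05), but the 2 other Lpl probes gave 0.12 and -0.03 and were not called. Vldlr, the receptor for very-low-density lipoprotein, read 1.55, 1.6 and 1.42 in KO liver and 0.41, 0.21 and 0.15 in WT liver (2.70 ± 0.26). Of its 4 other probes 1 was called in the same direction. Pparg, a nuclear receptor of fat storage, read 1.43, 1.35 and 1.43 in KO liver and 0.54, 0.45 and 0.65 in WT liver (1.38 ± 0.17, adjusted p = 4.22e-04). The 2 other Pparg probes gave 0.40 and 0.12 and were not called. Cd36, Plin2 and Cidec, a fatty acid transporter and a pair of droplet proteins, gave -0.10, -0.31 and -0.22 and were not called; they were chosen after their values were seen.

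None of 28 genes of fatty acid oxidation and ketogenesis was called by limma (7 at an unadjusted p under 0.05), with a median of 0.12. Over all probes 12.7% had an unadjusted p under 0.05. Called shares over all genes were 2.43% up and 0.871% down. Of 20 lipogenesis genes, Fads1, a desaturase, rose by 0.51 ± 0.10 (lost without KO array 2 or WT array 2). Gpd1, which makes glycerol phosphate, fell by 0.56 ± 0.14 and lost its call in 5 of the 6 fits, all but the one without KO array 1; the other 18 were not called. Among 23 genes of cholesterol synthesis and uptake only Scarb1, the receptor for high-density lipoprotein, was called. Scarb1 read 1.53, 1.72 and 2.85 in KO liver and 0.63, 0.43 and 0.46 in WT liver (1.97 ± 0.27, adjusted p = 9.04e-04), and of its other probes 1 was called in the same direction. Apoc2, the cofactor of lipoprotein lipase, read 0.13, 0.14 and 0.71 in KO liver and 1.08, 0.96 and 1 in WT liver. KO array 3 stood apart from the other 2 KO arrays, and Apoc2 fell by 2.11 ± 0.49 (adjusted p = 0.0382), a call lost in every fit that left out an array other than KO array 3.

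Bile acid genes changed in both directions. Of 24 measured, 3 rose, 2 fell and 19 were not called, where 2.43% of all genes were called up and 0.871% down. The median was 0.05. Cyp7b1, the oxysterol hydroxylase of the alternative pathway and a male-biased gene, read 1.01, 0.72 and 0.8 in KO liver and 5.27, 3.78 and 10.02 in WT liver (-2.81 ± 0.29, 7.0-fold, adjusted p = 8.18e-05). Cyp7a1, the rate-limiting enzyme of the classical pathway, gave 1.69 and was not called (adjusted p = 0.0587). Slco1a4, a transporter close to Slco1a1, rose by 2.20 ± 0.49 where Slco1a1 fell. The calls of Slco1a4, of Cyp39a1 (an oxysterol hydroxylase, 1.28 ± 0.27) and of Slc51b (an export subunit, 0.69 ± 0.14) were lost in 5, 5 and 4 of the 6 fits that left out an array. Slco1a4 kept its call without WT array 1, Cyp39a1 without KO array 3, and Slc51b without KO array 1 or WT array 3.

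Of 33 complement and coagulation genes, 5 fell, 2 rose and 26 were not called, where 0.871% of all genes were called down and 2.43% up. The median was 0.00. C8a, a subunit of the membrane attack complex, read 1.34, 0.95 and 1 in KO liver and 9.06, 7.42 and 9.28 in WT liver (-2.98 ± 0.18, 7.88-fold, adjusted p = 2.28e-07). C6 joins the same complex and read 0.76, 1.27 and 0.84 in KO liver and 5.44, 5 and 6.72 in WT liver (-2.61 ± 0.25), while its second probe gave -0.08 and was not called. C8b fell by 1.64 ± 0.20 and C9, the pore-forming component, by 1.24 ± 0.22 (lost without KO array 2). C8g and Hc, the gene for component 5, gave 0.23 and 0.26 and were not called, both chosen after their values were seen. C4b, an early component, read 2.05, 1.7 and 2.59 in KO liver, against 0.45, 0.56 and 0.37 in WT liver, a rise of 2.20 ± 0.44 (lost without KO array 1 or 3 or WT array 3). Its 3 other probes were not called.

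Of 23 acute phase genes, 5 rose, 1 fell and 17 were not called, where 2.43% of all genes were called up and 0.871% down. The median was 0.46. Mt1, a metal-binding metallothionein, read 1.31, 1.21 and 1.31 in KO liver and 0.09, 0.17 and 0.11 in WT liver, without overlap (3.42 ± 0.44, 10.7-fold, adjusted p = 6.83e-04). Mt2 rose by 2.15 ± 0.43, with the call lost in 5 of the 6 fits, all but the one without KO array 3. Serpina3n, a protease inhibitor, read 0.96, 1 and 1.18 in KO liver and 0.45, 0.28 and 0.41 in WT liver (1.49 ± 0.22). Itih4, a plasma inhibitor heavy chain, rose by 1.26 ± 0.17 and Il1rn, the interleukin-1 receptor antagonist, by 0.75 ± 0.11. The second Il1rn probe gave -0.02 and was not called. The serum amyloid genes Saa1 and Saa2 gave 3.04 and 2.60 and were not called (adjusted p = 0.0692 and 0.277), and they were chosen after their values were seen. The promoter window of Mt1 is shown because metallothionein genes are known for metal response elements near the start. It lies at chr8:94178839-94179138 on the plus strand of GRCm38.p6, from RefSeq, and capitals mark the letters TGCACNC or TGCGCNC, searched on both strands.
Mt1: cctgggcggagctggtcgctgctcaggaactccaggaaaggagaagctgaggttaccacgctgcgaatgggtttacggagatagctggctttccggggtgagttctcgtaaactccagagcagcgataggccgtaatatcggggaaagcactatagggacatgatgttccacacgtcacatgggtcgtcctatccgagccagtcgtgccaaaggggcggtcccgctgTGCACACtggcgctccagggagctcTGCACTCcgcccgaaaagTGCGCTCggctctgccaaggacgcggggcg
Mt1 has 3 matches, the first 23 bases before the start and the others 2 and 20 bases after it. Of all windows 25.7% hold at least 1. Among the genes named by rule with a window, 11 of 40 that rose and 5 of 29 that fell had a match. The share over all genes with a window was 28.2%.

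Several endoplasmic reticulum genes fell. Of 20 chaperone and stress genes, 4 fell, none rose and 16 were not called, where 0.871% of all genes were called down. The median was -0.25. Hspa5, the chaperone BiP, read 0.57, 0.56 and 0.54 in the KO arrays and 1.12, 0.91 and 0.99 in the WT arrays. The KO arrays were nearly identical and all lower (-0.85 ± 0.15, 1.8-fold, adjusted p = 0.00941). Asns, asparagine synthetase, read 0.79, 1.12 and 0.94 in KO liver and 2.89, 1.46 and 4.38 in WT liver (-1.49 ± 0.27), with the same order of WT arrays as Socs2. The second Asns probe gave -0.23 and was not called. In 391, Box1 and 569 liver Asns lay between 0.77 and 1.25, so the WT arrays alone stood higher. The difference of 569 from WT, on 1 slide, was -1.51 and was not called (adjusted p = 0.167). Xbp1, a stress transcription factor, fell by 0.55 ± 0.13 and Hyou1, a chaperone, by 0.50 ± 0.12. Their calls were lost in 5 and 4 of the 6 fits that left out an array, all but those without WT array 2 for Xbp1 and without WT array 1 or 3 for Hyou1. The stress factors Ddit3, Atf3 and Trib3 lay between 0.07 and 0.13 and were not called; they were chosen after their values were seen. The Hspa5 window, at chr2:34771840-34772139 on the plus strand of GRCm38.p6 from RefSeq, is shown because it holds the letters of an endoplasmic reticulum stress element, CCAAT and CCACG with any 9 bases between them, in capitals and searched on both strands.
Hspa5: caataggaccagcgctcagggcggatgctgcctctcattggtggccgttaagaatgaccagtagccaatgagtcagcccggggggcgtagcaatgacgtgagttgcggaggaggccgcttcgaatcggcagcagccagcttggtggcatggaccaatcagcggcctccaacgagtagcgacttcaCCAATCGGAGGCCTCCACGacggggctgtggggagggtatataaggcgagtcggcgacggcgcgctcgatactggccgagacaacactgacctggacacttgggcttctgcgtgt
That match lies 65 bases before the start, and 0.119% of all windows hold the letters on either strand.

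Genes of amino acid breakdown and respiration gave mostly small positive differences. Of 26 urea cycle and amino acid genes, 3 rose, none fell and 23 were not called, where 2.43% of all genes were called up. The median was 0.51 against 0.03 over all genes. Hpd, of tyrosine breakdown, read 1.84, 1.9 and 1.54 in KO liver and 0.88, 0.65 and 0.7 in WT liver (1.25 ± 0.19, adjusted p = 0.00222). Prodh and Aldh4a1, of proline breakdown, rose by 1.05 ± 0.22 and 0.73 ± 0.16, and lost the call in 5 of the 6 fits (all but without WT array 1) and in all 6. Of 21 genes of gluconeogenesis and fasting, 4 rose and 17 were not called, with a median of 0.54. The alanine transaminase Gpt read 1.34, 1.27 and 1.26 in KO liver and 0.8, 0.62 and 0.71 in WT liver (0.87 ± 0.13, adjusted p = 0.00278), and Gpt2 rose by 0.89 ± 0.21. Foxo1, a fasting transcription factor, rose by 0.74 ± 0.15 and Sesn1, a sestrin, by 0.60 ± 0.14. The second Foxo1 probe gave 0.27 and was not called. Gpt2, Foxo1 and Sesn1 lost their calls in 4, 4 and 5 of the 6 fits, all but those without WT array 1 and, for Gpt2, KO array 3 and, for Foxo1, KO array 2. Pck1 and G6pc, the gluconeogenic enzymes proper, gave 1.07 and -0.28 and were not called (adjusted p = 0.378 and 0.859); they were chosen after their values were seen.

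Of 43 subunits of oxidative phosphorylation, 4 rose, none fell and 39 were not called, where 2.43% of all genes were called up. The difference was above 0 for all 43, with a median of 0.35 against 0.03 over all genes. By array the median log2 ratio of the list was 0.06, 0.19 and 0.00 in KO liver and 0.00, -0.49 and -0.20 in WT liver, so KO array 3 and WT array 1 were level and WT arrays 2 and 3 lay lower. Sdhb, of succinate dehydrogenase, rose by 0.77 ± 0.16, Cox5b and Cox6b1, of cytochrome oxidase, by 0.68 ± 0.15 and 0.59 ± 0.12, and Ndufb8, of complex I, by 0.67 ± 0.15. These calls were lost in 3, 5, 4 and 5 of the 6 fits; each was lost without KO array 2, WT array 2 and WT array 3. Of 34 cytosolic ribosomal proteins, Rps9 alone was called (-0.81 ± 0.18, lost in all but the fit without KO array 3), where 0.871% of all genes were called down. The 2 other Rps9 probes were not called. None of 26 proteasome, 14 heat shock, 19 immediate early, 25 cell cycle and 24 collagen and matrix genes was called by limma. At an unadjusted p under 0.05 there were 2 proteasome, 2 heat shock, 1 immediate early, 4 cell cycle and 7 collagen and matrix genes. Over all probes the share at that threshold was 12.7%.

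Sulphur amino acid genes held 1 large fall. Over all genes 2.43% were called up and 0.871% down. Csad, which makes the taurine precursor, read 0.43, 0.33 and 0.15 in KO liver and 2.86, 2.65 and 2.41 in WT liver (-3.25 ± 0.29, 9.5-fold, adjusted p = 1.44e-05). Gnmt, a glycine methyltransferase, rose by 1.32 ± 0.32, and Ahcy, the hydrolase of S-adenosylhomocysteine, by 0.68 ± 0.13, and the 15 other members were not called. Gnmt kept its call only without KO array 3, though a second Gnmt probe was called as well (1.21, adjusted p = 0.00105), and Ahcy lost its call without KO array 1 or 2 or WT array 2.

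Of 28 genes of glutathione and xenobiotic metabolism, 5 rose, 1 fell and 22 were not called. The shares over all genes were 2.43% up and 0.871% down. Gstp1, a glutathione transferase higher in male liver, read 0.48, 0.55 and 0.45 in KO liver and 1.79, 1.69 and 1.95 in WT liver (-1.88 ± 0.26, adjusted p = 9.81e-04), and its 2 other probes fell as well. Gstt3, a theta transferase, read 1.21, 1.08 and 1.31 in KO liver and 0.4, 0.19 and 0.45 in WT liver (1.88 ± 0.27). Its second probe gave 0.08 and was not called. The alpha transferases Gsta2, Gsta1 and Gsta4 rose by 1.65, 1.38 and 0.97, with calls lost in 4, 4 and 5 of the 6 fits, in each gene without KO array 1, KO array 2, WT array 2 or WT array 3. Of 13 genes of glucuronidation, Ugt2b1 alone was called and fell by 1.11 ± 0.14. Of 12 carboxylesterases, Ces3b and Ces3a fell and Ces1g rose by 1.15 ± 0.17. Ces3b read 1.52, 0.59 and 1 in KO liver and 10.84, 8.57 and 12.17 in WT liver (-3.43 ± 0.31, 10.8-fold).

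The clock genes Per2, Per3 and Tef rose, the first pair being repressors of the core loop and Tef an output factor. The 14 other clock genes measured were not called, where 2.43% of all genes were called up. Per2 read 2.11, 2.2 and 3.3 in KO liver and 0.51, 0.51 and 0.95 in WT liver (1.99 ± 0.39, lost without KO array 3 or WT array 2). Per3 read 3.39, 2.81 and 3.46 in KO liver and 0.9, 0.66 and 1.38 in WT liver (1.78 ± 0.36, lost without any of the KO arrays or WT array 2). Tef read 1.89, 1.85 and 1.84 in KO liver and 0.58, 0.66 and 1.03 in WT liver (1.34 ± 0.22). WT array 3 was the highest WT array in all 3 genes, and the other probes of Per2, Per3 and Tef were not called. Arntl and Clock, the activators of the loop, gave -0.51 and -0.42 and were not called (adjusted p = 0.629 and 0.304), chosen after their values were seen. The time of day of collection is not given in the sources used here, and its part in these differences was not tested.

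Among the largest rises outside the lists, Abhd1, a hydrolase, read 5.32, 4.83 and 5.48 in KO liver and 0.87, 1 and 0.93 in WT liver (2.48 ± 0.18, 5.58-fold), and both of its probes were called. Upp2, a uridine phosphorylase, read 5.51, 3.91 and 3.8 in KO liver and 0.44, 0.3 and 1 in WT liver (3.09 ± 0.46), and all 3 of its probes rose. Aldh1b1, a mitochondrial aldehyde dehydrogenase, rose by 2.53 ± 0.26 and Ildr2, a membrane protein, by 2.55 ± 0.23. Among the falls, Serpina12, the adipokine vaspin, read 0.6, 0.47 and 0.69 in KO liver and 10.07, 10 and 15.2 in WT liver (-4.31 ± 0.33, 19.9-fold). Wfdc21, a secreted protein with a protease inhibitor fold, read 1, 3.58 and 0.6 in KO liver and 13.98, 9.32 and 12.92 in WT liver (-3.21 ± 0.48). KO array 2 was the highest KO array for Wfdc21 but still lay below every WT array.

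Few markers of other cell types were called. Over all genes 2.43% were called up and 0.871% down. Spink1, a secreted trypsin inhibitor of pancreatic acinar cells, read 0.5, 1 and 1.25 in KO liver and 0.05, 0.05 and 0.04 in WT liver (18.4-fold, SE 0.35 on the log2 scale, adjusted p = 6.03e-06). It was the 1 called gene of 15 pancreas markers, whose summed ratio was 14.78 to 15.87 in KO liver and 13.15 to 13.97 in WT liver; Ctrb1, Clps and Cpa1 gave -0.14, -0.09 and 0.04. Of 17 macrophage and Kupffer markers Timd4, a receptor for dying cells, rose by 0.96 ± 0.15 and the rest were not called. In this list 15 markers were higher and 2 lower in KO liver, with a median difference of 0.32. The summed ratio was 19.43 to 22.2 in KO liver and 15.52 to 16.32 in WT liver. Of 17 endothelial markers Stab1, a scavenger receptor, rose by 0.77 ± 0.14 (lost without KO array 3). Krt23, an epithelial keratin, read 1.09, 1.36 and 1.7 in KO liver and 0.14, 0.2 and 0.18 in WT liver (2.99 ± 0.38), while the duct marker Sox9 fell by 1.08 ± 0.16 and Krt7 and Krt19 gave 0.06 and 0.26.

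Of 11 erythroid markers Klf1 rose by 0.96 ± 0.13 and Alas2 fell by 1.22 ± 0.23 (lost without KO array 2). Their summed ratio was 18.65 to 22.78 in KO liver and 10.68 to 13.37 in WT liver. By array their median log2 ratio was -0.06, 0.06 and 0.15 in KO liver and 0.01, -0.01 and 0.01 in WT liver. In this median the groups overlapped. Single arrays of the other genotypes reached sums of 16.58 (391), 17.02 (Box1) and 16.96 (569). Hbb-b2, a globin, gave 3.41 and was not called (adjusted p = 0.0582). No lymphocyte, neutrophil, stellate or skeletal muscle marker was called by limma, out of 16, 12, 17 and 14. At an unadjusted p under 0.05 there were 7, 1, 4 and 0 of them, where the share over all probes was 12.7%. Pparg was the 1 called of 11 adipocyte markers. Called shares over all genes were 2.43% up and 0.871% down. Of the 16 lymphocyte markers, 14 were higher and 2 lower in KO liver, with a median difference of 0.30. Their summed ratio was 15.67 to 21.86 in KO liver and 14.33 to 15.15 in WT liver. The part of the macrophage, lymphocyte and erythroid sums in the differences of other genes was not tested.

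KO liver was then set against the 391 and Box1 livers, which also carry a defective receptor, to ask what separates removal of the receptor from its mutation. These comparisons share the KO arrays with the comparison to WT. Before the results, 391 arrays 2 and 3 stood apart: their pancreas markers summed to 309.7 and 120.3, against 13.15 to 18.01 in the other 13 liver arrays, and the skeletal muscle markers of 391 array 2 summed to 256. Between KO and 391, on the same slide, 84 probes were called (0.18%), 46 up (0.0986%) and 38 down (0.0815%). With 391 arrays 2 and 3 left out, 173 were called, 43 of them among the 84, and without 391 array 3 alone 271; without KO array 1, KO array 2, KO array 3, 391 array 1 and 391 array 2 there were 37, 27, 56, 92 and 27. Between KO and Box1, 69 probes were called (0.148%), 30 up (0.0643%) and 39 down (0.0836%), with 155 called without those 391 arrays and 240 after quantile normalization. Single arrays left out gave 44, 33 and 72 for KO and 52, 31 and 31 for Box1, in the order of their numbers.

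Few genes of the growth hormone axis were called between these genotypes. Of the 24 axis genes limma called none between KO and 391 (4 at an unadjusted p under 0.05), and between KO and Box1 only Ghr, against 0.325% and 0.247% of all genes. Igf1 read 1, 1.15 and 0.68 in KO liver, against 0.44, 0.43 and 0.61 in 391 liver and 0.47, 0.44 and 0.57 in Box1 liver. All KO arrays were higher, but the differences of 0.92 and 0.91 (SE 0.18 each) were not called (adjusted p = 0.0602 and 0.0743). Igf1 in 569 liver, on the slide of WT, read 14.24, 14.44 and 11.24. Ghr read 0.3, 0.26 and 0.23 in Box1 liver, so that KO liver was higher by 2.28 ± 0.23 (adjusted p = 2.86e-04) and Box1 was the 1 genotype in which this probe was low. The other Ghr probe read 1.15, 1.28 and 0.96 in Box1 liver and did not show this (KO minus Box1 -0.11, adjusted p = 0.96). Ghr was thus low on 1 probe in the arrays labelled Box1 and on neither in those labelled KO; whether both labels are right was not tested, and every direction between KO and Box1 rests on them. Of the male-biased list, none was called between KO and 391 (5 at an unadjusted p under 0.05) and 1 between KO and Box1, Csad, which was lower in KO liver (-1.98, adjusted p = 0.0103). Of the 36 female-biased genes, 3 were higher in KO than in 391 liver (11 of either direction at an unadjusted p under 0.05), against 0.18% of all genes: Cyp2a4 (1.42, adjusted p = 0.0468), Hao2 (1.02, adjusted p = 0.0241) and the transporter Slc22a26 (1.27, adjusted p = 0.0211). Slc22a26 alone of that list was called against Box1 (1.11, adjusted p = 0.0428), against 0.108% of all genes called up, and it was picked with its values in view. The second Cyp2a4 probe gave 0.68 between KO and 391 and was not called (adjusted p = 0.177). The summed ratio of the female-biased list was 44.75, 50 and 121.5 in KO liver. It was 117.9, 75.32 and 99.66 in 391 liver and 123.3, 113.6 and 124.4 in Box1 liver. In this sum KO arrays 1 and 2 lay below every 391 and Box1 array, and KO array 3 lay among them. The median log2 ratio of the list did not follow this order. By array it was 0.06, 0.15 and 0.01 in KO liver, and 0.18, 0.14 and 0.05 in 391 liver. In Box1 liver it was 0.18, 0.17 and 0.21. KO array 3, with the highest KO sum, thus had the lowest median, and the sum does not describe the list as a set.

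**Figure D4:**
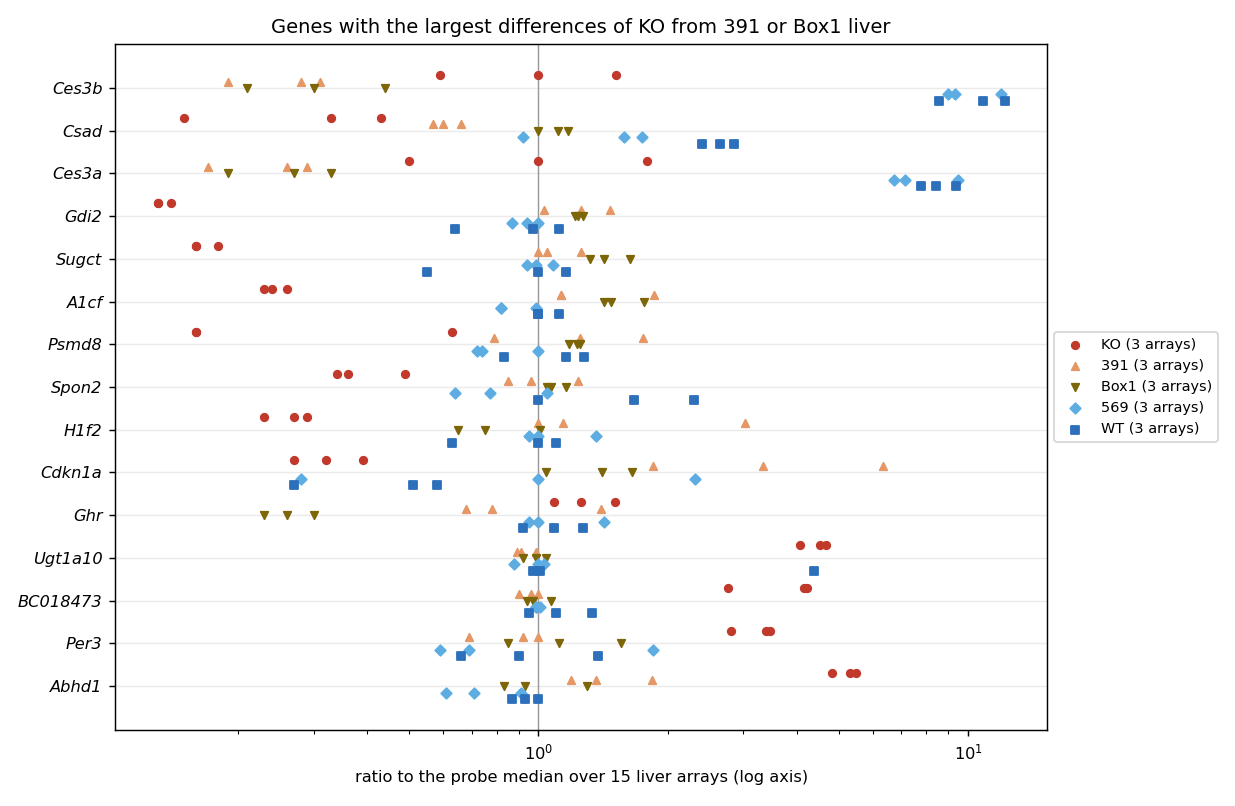
Ratio to the probe median over the 15 liver arrays (log axis) for the 15 named genes with the largest called differences of KO from 391 or Box1 liver, with 1 point per array and a marker for each genotype. The KO points of Gdi2 and Sugct lie at 0.13 to 0.18, below those of every other genotype, and those of Abhd1 at 4.83 to 5.48, above them.

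Apart from Ghr against Box1 liver, the largest differences from 391 and Box1 liver were in genes outside the axis. Most of these genes were called against WT too, with the same KO arrays. Gdi2, a regulator of Rab GTPases in membrane traffic, read 0.13, 0.14 and 0.13 in KO liver, 1.26, 1.03 and 1.47 in 391 liver, 1.24, 1.22 and 1.27 in Box1 liver, and 1.12, 0.97 and 0.64 in WT liver. The differences were -3.22 from 391 (adjusted p = 1.81e-07), -3.22 from Box1 (adjusted p = 8.9e-08) and -2.73 from WT, but the 2 other Gdi2 probes were not called against WT. Sugct, a mitochondrial CoA transferase, read 0.16, 0.16 and 0.18 in KO liver, 1.26, 1 and 1.05 in 391 liver, 1.42, 1.32 and 1.63 in Box1 liver, and 1.16, 1 and 0.55 in WT liver. A1cf, a cofactor of apolipoprotein B mRNA editing, read 0.24, 0.23 and 0.26 in KO liver, and lay between 0.82 and 1.86 in the 12 other liver arrays. Psmd8, a proteasome subunit, was low in KO arrays 1 and 2 (0.16 each) and less so in KO array 3 (0.63); it was called against 391, Box1 and WT, and against WT no longer without KO array 1 or 2 or WT array 3.

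Spon2, a secreted matrix protein, read 0.49, 0.34 and 0.36 in KO liver, and differed from 391 liver by -1.36 (adjusted p = 0.0451) and from Box1 liver by -1.48 (adjusted p = 0.0289). Its second probe gave 0.02 in both comparisons and was not called. H1f2, a linker histone, read 0.27, 0.23 and 0.29 in KO liver and 1, 3.03 and 1.14 in 391 liver (-2.53, adjusted p = 0.00482). Cdkn1a, a cell cycle inhibitor, read 0.32, 0.39 and 0.27 in KO liver and 3.33, 6.33 and 1.85 in 391 liver (-3.39, adjusted p = 0.029), and was not called between KO and WT (-0.42, adjusted p = 0.861). Its second probe missed the threshold between KO and 391 (-3.09, adjusted p = 0.0561). In the other direction, Abhd1 was higher in KO liver by 1.85 than in 391 liver (adjusted p = 2.21e-04) and by 2.38 than in Box1 liver (adjusted p = 1.06e-05). The transcript BC018473 read 2.77, 4.22 and 4.15 in KO liver, and the 12 other liver arrays lay between 0.9 and 1.33; its second probe was not called against WT (-0.03). Ugt1a10, a glucuronosyltransferase, read 4.53, 4.06 and 4.67 in KO liver, 0.99, 0.91 and 0.89 in 391 liver, and 1.01, 0.97 and 4.37 in WT liver. WT array 3 thus lay with the KO arrays, and the difference from WT was not called (1.44, adjusted p = 0.0697). The other Ugt1a10 probes gave 0.18 and 0.15 between KO and 391 and were not called.

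For Ces3a and the more variable probe of Ces3b the KO arrays lay above the 391 and Box1 arrays and below the 569 and WT arrays. Ces3b read 1.52, 0.59 and 1 in KO liver, 0.19, 0.28 and 0.31 in 391 liver, 0.44, 0.21 and 0.3 in Box1 liver, 8.99, 9.34 and 11.96 in 569 liver, and 10.84, 8.57 and 12.17 in WT liver. It was higher in KO than in 391 liver by 1.92 (adjusted p = 0.0237) and than in Box1 liver by 1.67 (adjusted p = 0.0468). The second Ces3b probe gave 0.16 and 0.21 in these comparisons and was not called (adjusted p = 0.877 and 0.788). Per3 was higher in KO liver by 1.90 than in 391 liver (adjusted p = 0.0471), where it read 1, 0.69 and 0.92, and Hspa5 was lower than in Box1 liver (-1.11, adjusted p = 0.00608). The other Per3 probes gave 0.10 and 0.46 between KO and 391 and were not called.

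The last comparison asks whether the difference of KO from WT is the same in liver and in subcutaneous fat. The difference itself differed between the tissues at 159 of 46643 probes (0.341%), 74 higher (0.159%) and 85 lower (0.182%) in liver. Without a single KO or WT array of either tissue the number lay between 86 and 216 (431 after quantile normalization) and was lowest without liver KO array 1 or 2 (102 and 96), liver WT array 2 (99), fat KO array 2 or 3 (92 and 91) or fat WT array 1 or 3 (86 and 105). Of the 104 named genes, 37 differed between the tissues, 20 lower and 17 higher in liver, and 2 of these were called in fat as well. Most named genes were picked for a called difference in liver, and some for this contrast itself, which favours a high count. The share over all 19406 genes was 0.536%. Igfals read 0.66, 0.66 and 0.69 in KO fat and 2.31, 4.07 and 2.16 in WT fat, and fell by 2.03 there (adjusted p = 5.22e-04). The liver difference minus the fat difference was -1.80 ± 0.37 (adjusted p = 0.0316). Serpina1e read 1.56, 0.57 and 0.86 in KO fat and 1.62, 2.49 and 2.72 in WT fat (-1.28, adjusted p = 0.0334).

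Igf1 gave -1.35 in fat (adjusted p = 0.426), and its difference between tissues of -3.04 was not called (adjusted p = 0.112). Of the sex-biased lists, 12 of the 25 male-biased genes differed downward and 9 of the 36 female-biased genes upward, against 0.273% and 0.263% of all genes. Slco1a1 read 1.04, 0.98 and 1.01 in KO fat and 1.03, 0.87 and 1.01 in WT fat, where its liver values were far apart. The ratios are set within each tissue, so a transcript absent from fat would also read near 1.

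**Figure D5:**
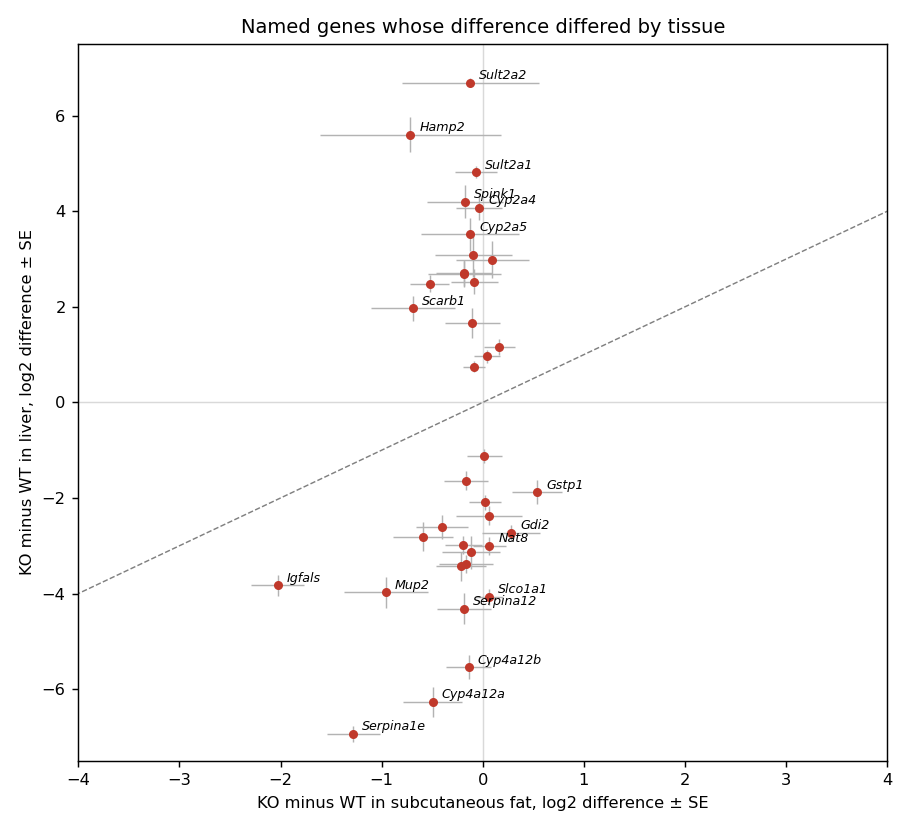
Log2 difference of KO minus WT in liver (vertical axis) against the same in subcutaneous fat (horizontal axis) for the 37 named genes whose difference differed by tissue, with SE bars and a dashed line where the tissues would be equal. Most genes lie near 0 in fat, and Igfals and Serpina1e lie furthest to the left, at -2.03 and -1.28.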

How the data were processed

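Total RNA of frozen liver and fat went onto Illumina bead arrays with a biotin label, per the labels' protocols. The deposited values are ratios of a probe to its own median among the 15 arrays of the tissue. That scale was read from the values, since the median was 1 for all 46643 probes. Background treatment, normalization and software used by the authors are unknown here. Array medians lay between 0.98 and 1.01, and signal over background is unknown. The number of arrays, 3 a group, limits the precision.

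Log2 ratios of the 15 liver arrays were fitted in 1 model by genotype with limma 3.58.1 in R 4.3.3 (lmFit, contrasts.fit, eBayes), two-sided, with Benjamini-Hochberg adjustment over all probes, and the tissue contrast in a model of all 30 arrays. No pseudocount and no filter were applied. The fitting was tested on simulated data. By the platform annotation 32794 probes had 1 gene symbol, 55 had several and 13794 had none, and a gene was represented by its most variable probe (SD over the liver arrays). Lists are described by counts and medians, without a test.

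Genes were named by rule: 9 axis genes (Ghr, Igf1, Igfals, Socs2, Cish, Igfbp1, Igfbp2, Igfbp3 and Bcl6), the 15 largest called rises and 15 largest called falls whose arrays did not overlap, up to 5 called members of each list, up to 6 genes each way against 391 or Box1 and up to 4 each way between tissues. Most genes outside the rule are marked in the text. Not chosen by rule and not marked are Jak2, Stat5a, Stat5b, Hnf4a, Onecut1, Cux2, Trim24, Hamp, Cyp7a1, Ctrb1, Clps, Cpa1, Krt7, Krt19 and Hbb-b2. The comparison, members and lists were chosen with earlier results of these data known. Alternatives were quantile normalization, median centring, a pseudocount of 0.05, leaving out probes at or under 0.05, the 6 arrays alone, array weights, robust eBayes, leaving out 391 arrays 2 and 3 or any single array, and the mean of a gene's probes.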

Additional observations from a re-analysis of the deposited data

Results flagged for a closer look

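For 37 of the named genes the difference of KO from WT differed between liver and subcutaneous fat by limma's interaction contrast (adjusted p under 0.05 over all probes); the values below are the liver difference minus the fat difference, KO minus WT on the log2 scale in each. Most named genes were picked for a called difference in liver, and some for this contrast itself, and over all genes 0.536% differed. The difference was lower in liver for 20 genes. Among the proteins and enzymes of the male-biased list it was -5.66 for Serpina1e, -5.77 for Cyp4a12a, -5.40 for Cyp4a12b, -4.13 for Slco1a1, -3.02 for Mup2, -3.21 for Elovl3, -3.07 for Nat8, -2.79 for C8a, -2.21 for Cyp7b1, -2.21 for C6 and -2.41 for Gstp1. It was -4.13 for Serpina12, -3.22 for Ces3b, -3.02 for Ces3a, -1.47 for C8b, -1.13 for Ugt2b1 and -1.80 for Igfals. Of the genes that differed between KO and the 391 and Box1 livers, Gdi2 gave -3.01, Sugct -2.43 and A1cf -2.12.

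The difference was higher in liver for 17 genes. The female-biased genes gave 4.88 for Sult2a1, 4.11 for Cyp2a4, 3.64 for Cyp2a5, 2.89 for Lpl and 2.88 for Vldlr. The fitted values of 6.82 for Sult2a2 and 6.32 for Hamp2 are no exact sizes. WT liver was at the lowest ratio in the file, 0.01, in 3 arrays for Sult2a2 and in 1 for Hamp2. With only these values set to the top of their rounding, the liver difference alone was 6.11 and 5.41 for these genes. The secreted inhibitor Spink1 gave 4.38, the keratin Krt23 2.89, and the enzymes Upp2, Abhd1, Aldh1b1, Gsta2 and Ces1g gave 3.18, 3.01, 2.61, 1.76 and 0.99. Scarb1 gave 2.66, Klf1 0.92 and Il1rn 0.83. In WT fat, array 2 read 5.55 for Hamp2 and 3.96 for Sult2a2, against 0.72 to 1.09 in the other WT fat arrays. No explanation was tested for any of these differences.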

How the results depend on the processing

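All 97 called genes named by rule kept their direction in the 6 fits that left out a KO or WT array and in the 8 other settings run gene by gene, and 56 kept their call in all of these. Sult2a2, Sult2a1, Hamp2 and Spink1 had 7 such settings, since the filter at 0.05 removed their probes, and the mean of a gene's probes was run for the list counts only. Of the 97, 41 lost the call in at least 1 of the 6 fits and 14 under another setting (8 with the 6 arrays alone, 7 with robust eBayes). Quantile normalization moved the probes called down between KO and WT from 228 to 376, those called between KO and Box1 from 69 to 240 and those differing between tissues from 159 to 431. Leaving out 391 arrays 2 and 3 gave 1418 probes between KO and WT (894 shared with the 899), 1109 of them up, 173 between KO and 391 and 155 between KO and Box1. With a single array left out the counts were 406 to 873 between KO and WT, 246 to 720 up and 121 to 162 down, 27 to 271 between KO and 391, 31 to 72 between KO and Box1, 86 to 216 between tissues, 58 to 96 over the gene lists, 13 to 14 male-biased genes down and 10 to 13 female-biased genes up. The causes were not tested. Scaling moved the median of all probes by at most 0.0284. Of 48 called genes with other probes, 19 had another probe called the same way, 29 had none called and none had 1 called the opposite way. Beyond those marked above, the 29 include Ahcy, Cox5b, Cox6b1, Cyp39a1, Fads1, Gsta1, Ndufb8, Prodh, Sdhb, Stab1 and Tmprss6. No paired analysis was possible because the labels give no replicate numbers. Signal over background is unknown, so a probe near background cannot be recognised.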

Other observations

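Interferon and antigen presentation genes were measured as well. For the counts below, 2.43% of all genes were called up and 0.871% down. Of 27 genes, Usp18, a protease that removes the ubiquitin-like ISG15, alone was called; it read 2, 1.06 and 1.75 in KO liver and 1.01, 0.58 and 0.65 in WT liver (1.09 ± 0.23, adjusted p = 0.0233, lost without KO array 1 or 3 or WT array 2 or 3). The class II genes Cd74, H2-Aa, H2-Eb1 and H2-Ab1 gave between 1.18 and 1.22 and were not called (adjusted p from 0.0514 to 0.159), and they were chosen after their values were seen. Of 18 apolipoprotein and lipoprotein assembly genes, Lcat, which esterifies plasma cholesterol, rose by 0.51 ± 0.13 (adjusted p = 0.0499) but lost the call in all 6 fits that left out an array. Of 16 iron genes, Tmprss6, the protease that restrains hepcidin, fell by 0.68 ± 0.15 in KO liver (adjusted p = 0.0333), a call kept only without WT array 3.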
